A study of Mus musculus with 12 samples.

Results

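Passage 13 is 1 of the 3 passages of embryonic stem (ES) cells from which the gastruloids of this study were grown. It makes up 4 of the 12 RNA sequencing libraries, picked by the passage number in the sample titles, and is compared here with the 4 libraries of passage 15 and the 4 of passage 16. Every library came from E14TG2a, a mouse ES cell line kept in 2iLIF, a medium that holds ES cells in the naive state, and the labels give no edited allele in any group. PolyA RNA was taken from whole gastruloids on day 4. Within each passage the 4 libraries differed in the medium of the last day, which held no glucose (0×), 21.25 mM glucose (1×), 63.75 mM glucose (3×) or 1× glucose with 5 mM 2-deoxy-D-glucose (2-DG), a glucose analogue that inhibits hexokinase. Each passage was 1 batch of gastruloids, pooled per treatment, so that passage number, batch and day of culture cannot be told apart. The labels give "embryonic stem cell" as the cell type, whereas the naive ES cell gene *Tcl1* had 2 counts in all 12 libraries together and 29 *Hox* genes passed the filter on low counts. The other 12 of the 13 listed genes of naive pluripotency passed that filter too, *Pou5f1* and *Nanog* among them.

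Gastruloids are aggregates of ES cells that break symmetry after a pulse of Wnt activation and elongate from a posterior pole that expresses *T* (*Brachyury*). At that pole lie axial progenitors that feed both the spinal cord and the presomitic mesoderm, the tissue that a clock of Notch, Wnt and FGF target genes cuts into somites. *Hox* genes switch on in the order of their place in each cluster and record how far posterior a cell lies. A batch of gastruloids can therefore be described by its share of RNA from progenitors, mesoderm, neural tissue and endoderm and by its *Hox* genes.

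The 12 libraries held 31902471 to 45956080 estimated counts. Expression is given as CPM, counts scaled to a common library size, and differences are log2 differences of passage 13 from the other 8 libraries with the treatment as a block, from edgeR's quasi-likelihood test with Benjamini-Hochberg adjustment and a threshold of 0.05. Of the 16693 genes tested, 6988 passed (41.9%), with 3500 higher (21.0%) and 3488 lower (20.9%) in passage 13. Most of these differences were small, and 693 genes (4.15%) passed with more than 1 on the log2 scale, 329 of them higher (1.97%) and 364 lower (2.18%). All 4 passage 13 libraries lay above all 8 others for 1060 genes (6.35%) and below them for 1308 (7.84%). The difference was seen against each passage on its own, since 7078 genes differed between passages 13 and 15 (42.4%) and 6836 between 13 and 16 (41.0%). These comparisons share the passage 13 libraries, and 5225 genes (31.3%) differed in both in the same direction. Between passages 16 and 15, 736 genes differed (4.41%), and the median absolute log2 difference was 0.0842, against 0.168 for 13 and 15 and 0.167 for 13 and 16. The count of 736 was 326 with no filter on low counts and ran from 83 to 1426 when single libraries were left out, against 5381 to 7154 for 13 and 15 and 5315 to 6898 for 13 and 16. Since the 4 libraries of a passage share 1 culture, these p-values set the differences against the spread between libraries and not between batches. With the passages as the units the comparison is 1 against 2, and an exact permutation test could not go below p = 0.333. Without the treatment block 4180 genes passed, and with each gene represented by its most abundant transcript alone 2330 passed.

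Values that can follow RNA quality or other cells were compared as well, beside 21.0% of all genes called higher and 20.9% called lower. Of the 6 RNAs without a polyA tail that passed the filter, 5 were higher in passage 13 and 0 lower, with a median of 0.82, and the 8 listed RNAs summed to 8.17 to 16.9 CPM there and to 5.03 to 12.2 CPM in the other libraries. Against passage 15 alone 2 of the 6 were higher and against passage 16 alone 5. The median difference of passage 16 from passage 15 was −0.50, with 0 of the 6 called. Among 6 genes of fibroblast feeder cells, on which ES cells are first grown, 0 were higher and 2 lower, and the 10 listed genes summed to 19.01 to 39.5 CPM in passage 13 against 28.2 to 54.9 CPM. The feeder genes *Lum*, *Postn* and *S100a4* had 0 to 2 counts in each passage 13 library. *Lox*, a feeder gene that did not pass the filter either, had 3 to 14 counts there and 0 to 10 in the other libraries. Of 5 Y-linked genes, 0 were higher and 2 lower, and the 7 listed genes summed to 128 to 157 CPM against 127 to 166 CPM. The part of these shifts in the results that follow was not tested.

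Somite and paraxial mesoderm genes were the list with the lowest median among the 40 described. Of the 13 tested, 11 were lower in passage 13 and 0 higher, with a median log2 difference of −1.81, against 20.9% of all genes called lower and a median of 0.012 over all genes. They were *Aldh1a2*, *Foxc1*, *Foxc2*, *Meox1*, *Meox2*, *Pax3*, *Ripply1*, *Tbx18*, *Tcf15*, *Twist1* and *Uncx*. For 10 of the 11, the exception being *Ripply1*, all passage 13 libraries lay below all 8 others, as they did for 7.84% of all genes. In bulk RNA, fewer cells of a type and less RNA per cell cannot be told apart.

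The forkhead factor *Foxc2*, which works in early paraxial mesoderm, was at 66.7, 42.6, 45.3 and 96.8 CPM in the 0×, 1×, 3× and 2-DG libraries of passage 13, the order kept throughout, and at 171 to 326 CPM (median 239) in the 8 others. Its highest passage 13 value, in 2-DG, lay well below the lowest other value, and the difference was −1.99 ± 0.22 (SE, adjusted p = 4.43e-05). *Foxc1*, its close relative, differed by −1.24 ± 0.078 (SE, adjusted p = 2.1e-06). *Meox1*, a homeobox gene of the forming somite, was at 46.8, 36.3, 40.4 and 112 CPM against 124 to 313 CPM (median 189), a difference of −1.82 ± 0.35 (SE, adjusted p = 0.00167). Here the 2-DG library of passage 13 came within reach of the others, and the 3 glucose libraries stood far below them. *Aldh1a2*, the enzyme that makes retinoic acid in paraxial mesoderm, differed by −1.37 ± 0.088 (SE, adjusted p = 2.33e-06). *Tbx18*, a marker of the anterior somite compartment, was at 1.07, 0.527, 0.725 and 0.879 CPM against 1.92 to 15.4 CPM (median 5.89), a difference of −3.27 ± 0.52 (SE, adjusted p = 0.000542). The passages other than 13 were not alike for this list either. In passage 16, 5 of the 13 genes were lower than in passage 15 and 0 higher, with a median of −0.80, and passage 13 was lower than passage 16 in 12 genes and lower than passage 15 in 11. The median matched difference of passage 13 was −2.08 in 0×, −2.19 in 1× and −1.91 in 3× glucose and −0.85 in 2-DG.

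**Figure D1:**
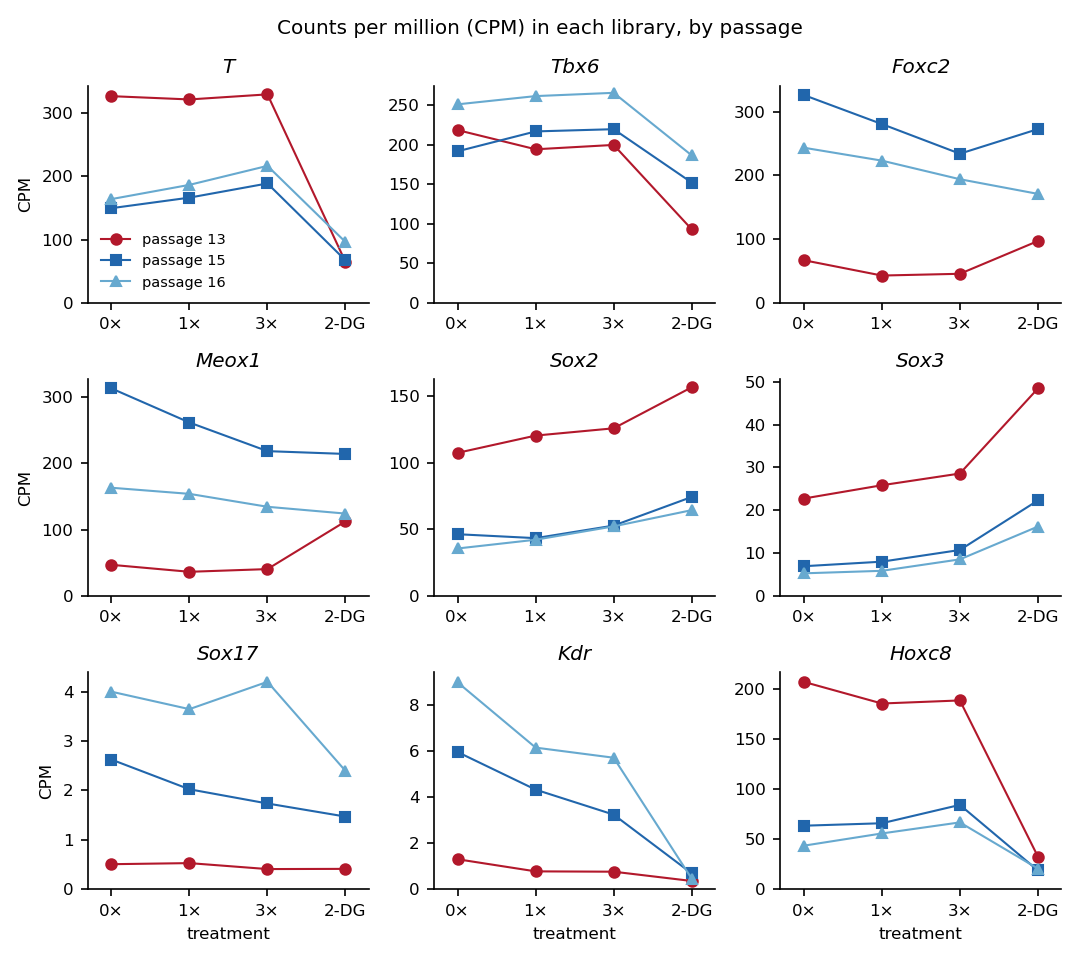
CPM in each of the 12 libraries (vertical axis, linear, from 0) by treatment (horizontal axis) for 9 genes of mesoderm, neural tissue, endoderm, endothelium and the *Hox* clusters, with 1 point for each library and lines joining a passage. *Foxc2*, *Meox1* and *Sox17* lay lowest and *Sox2* and *Sox3* highest in passage 13 under every treatment, whereas *T* and *Hoxc8* stood apart in the 3 glucose media and came close to the other passages in 2-DG.

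In the presomitic mesoderm and its clock, 7 of 10 genes were lower and 0 higher in passage 13, with a median of −0.45, and 4 did not overlap with the others. Of all genes, 20.9% were called lower and 7.84% lay below the others without overlap. The 7 were *Dll1*, *Dll3*, *Lfng*, *Mesp2*, *Nrarp*, *Ripply2* and *Tbx6*, and the lowest values were those of *Ripply2* and *Mesp2*, which are expressed at the anterior end where a somite is about to form. *Mesp2*, which sets the segment border, was at 10.5, 6.98, 8.902 and 21.9 CPM against 28.5 to 81.8 CPM (median 51.4), and differed by −2.14 ± 0.33 (SE, adjusted p = 0.000422). *Lfng*, a glycosyltransferase that modulates Notch, differed by −1.13 ± 0.14 (SE, adjusted p = 0.000103). The Notch ligands *Dll1* and *Dll3* differed by −0.53 ± 0.042 (SE, adjusted p = 6.52e-06) and −0.66 ± 0.053 (SE, adjusted p = 6.75e-06). *Tbx6*, the factor that commits progenitors to paraxial mesoderm, was at 218, 194, 199.7 and 92.8 CPM against 152 to 266 CPM (median 218), and these groups overlapped. Its difference was −0.35 ± 0.13 (SE, adjusted p = 0.0415), and this call was lost with DESeq2, with no filter, without the block, with the most abundant transcript alone, without the 2-DG libraries, against passage 15 alone and without any 1 of 7 libraries (1×, 3× and 2-DG of passage 13, 2-DG of passage 15 and 0×, 1× and 3× of passage 16).

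Upstream of these tissues the direction was the other. Of 12 tail bud and axial progenitor genes, 8 were higher (*Cdx2*, *Cdx4*, *Cyp26a1*, *Fgf4*, *Greb1*, *Hes3*, *Nkx1-2* and *Sp8*) and *Wnt5a* was lower, with a median of 0.64, against 21.0% of all genes called higher. *Nkx1-2*, a homeobox gene of the axial progenitors, was at 219, 238, 245 and 92.9 CPM against 50.1 to 112 CPM (median 74.6). Its 3 glucose libraries lay above all others and its 2-DG library lay inside their range, and the difference was 1.29 ± 0.11 (SE, adjusted p = 1.2e-05). *Cdx2*, which opens the posterior *Hox* genes, was at 321, 338, 349.5 and 157 CPM against 96.5 to 178 CPM (median 128) and differed by 1.08 ± 0.11 (SE, adjusted p = 3.17e-05). *Wnt5a*, a ligand of the non-canonical Wnt pathway, was at 106, 92.5, 95.5 and 83.8 CPM against 109.6 to 159 CPM (median 144), with no overlap, and differed by −0.57 ± 0.048 (SE, adjusted p = 9.69e-06). *Hes3* was also called, at 1.13 ± 0.086 (SE, adjusted p = 5.03e-06), but its most abundant transcript alone gave −1.13. The calls of *Cyp26a1* and *Cdx4* were lost against passage 16 alone and without single glucose libraries of passage 13 (any of the 3 for *Cyp26a1*, 0× or 1× for *Cdx4*). That of *Fgf4*, at 0.60 (adjusted p = 0.0445), was lost without the 0×, 1× or 3× library of any passage, without the 2-DG library of passage 15, and with DESeq2. The median matched difference of the list was 1.02 in 0×, 1.00 in 1× and 0.76 in 3× glucose and −0.18 in 2-DG.

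Genes of the primitive streak and nascent mesoderm were divided, with 7 of 14 higher, 3 lower and a median of 0.33. Of all genes, 21.0% were called higher and 20.9% lower. *T*, the defining gene of the posterior pole, was at 327, 322, 330.0 and 64.6 CPM in passage 13 and at 67.05 to 217 CPM (median 165) in the others. The 3 glucose libraries of passage 13 lay above all others, and its 2-DG library, at 64.6 CPM, lay just below the lowest of them, at 67.05 CPM. The fitted difference was 0.62 ± 0.17 (SE, adjusted p = 0.013), but the call was lost without the block, with the most abundant transcript alone, against passage 16 alone and without any 1 of the 3 glucose libraries of passage 13. *Fgf8* and *Fgf17*, ligands of the posterior FGF gradient, were higher by 0.64 ± 0.10 (SE, adjusted p = 0.000351) and 1.01 ± 0.18 (SE, adjusted p = 0.000933), although the most abundant transcript of *Fgf8* alone gave −0.042. The 3 lower genes were *Lhx1*, *Mesp1* and *Nodal*. *Mesp1*, an early marker of mesoderm leaving the streak, was at 8.296, 6.74, 8.55 and 18.9 CPM against 19.2 to 31.9 CPM (median 28.2) and differed by −1.40 ± 0.19 (SE, adjusted p = 0.000199), and *Lhx1* differed by −1.86 ± 0.25 (SE, adjusted p = 0.000182). For these 2 genes the passage 13 libraries lay below all others. *Nodal*, a ligand of mesendoderm induction, was low everywhere, at 0.8202, 0.702, 0.783 and 0.469 CPM against 0.191 to 2.18 CPM (median 1.61), and its call at −0.89 ± 0.28 (SE, adjusted p = 0.0254) was lost against passage 15 alone and without the 0×, the 1× or the 3× library of passage 13 or the 1× library of passage 16.

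**Figure D2:**
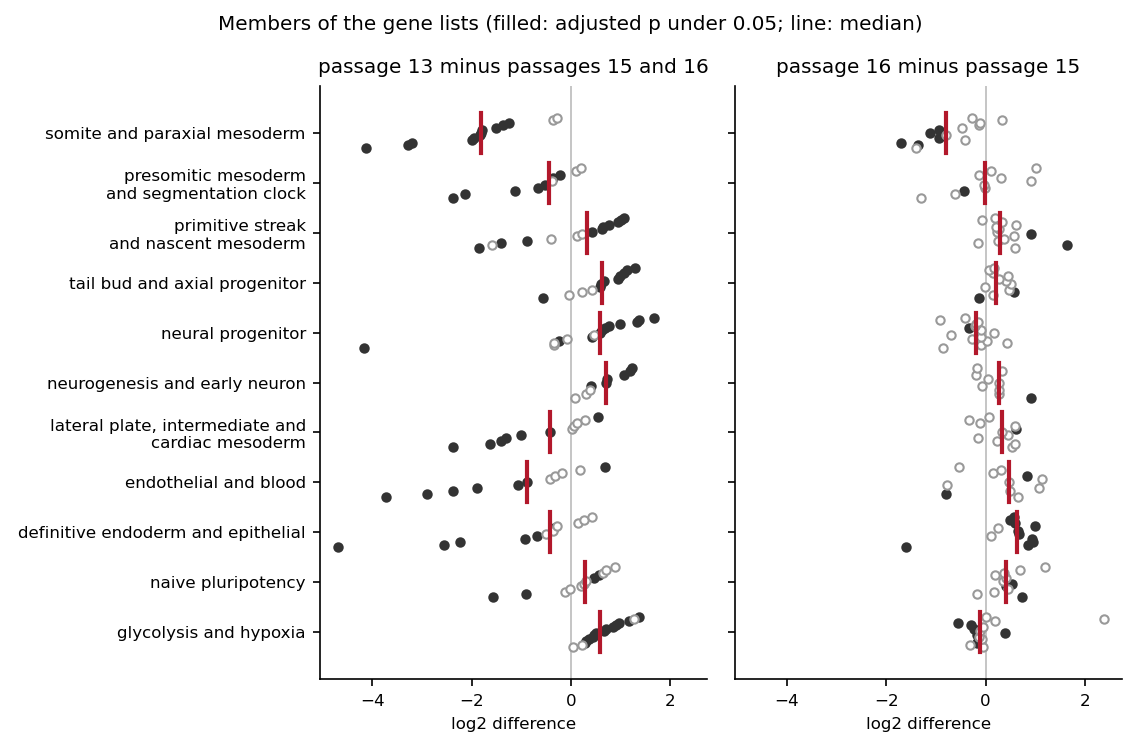
Log2 differences (horizontal axes) of the members of 11 gene lists (rows), of passage 13 from passages 15 and 16 on the left and of passage 16 from passage 15 on the right. Each point is 1 gene, filled where its adjusted p was under 0.05, and the bar is the list's median, which on the left was −1.81 for somite genes and 0.58 for neural progenitor genes.

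Neural genes were mostly higher in passage 13, beside 21.0% of all genes called higher and 20.9% called lower. Of 15 neural progenitor genes, 9 were higher (*Hes5*, *Irx3*, *Nes*, *Pou3f2*, *Sox1*, *Sox2*, *Sox21*, *Sox3* and *Zic1*) and *Msi1* and *Olig2* were lower, with a median of 0.58. *Sox2*, which marks neural and axial progenitors, was at 107, 120.2, 126 and 156 CPM against 35.5 to 74.2 CPM (median 49.2). All 4 passage 13 libraries lay above all 8 others, and the difference was 1.33 ± 0.066 (SE, adjusted p = 6.39e-07). Its relative *Sox3* was at 22.7, 25.9, 28.6 and 48.5 CPM against 5.27 to 22.3 CPM (median 8.26), again without overlap, and differed by 1.68 ± 0.13 (SE, adjusted p = 5.03e-06). *Sox1*, an early marker of committed neural tissue, was at 7.697, 7.86, 8.76 and 29.3 CPM against 2.96 to 16.1 CPM (median 4.43). It differed by 0.99 ± 0.10 (SE, adjusted p = 3.32e-05), a call that did not pass without the treatment block. The call of *Sox21* was lost without the 1× library of passage 13. *Hes5*, a Notch target in neural progenitors, differed by 0.62 ± 0.057 (SE, adjusted p = 1.62e-05). *Pax6*, which comes on in the maturing neural tube, was at 3.596, 4.24, 3.39 and 15.6 CPM against 2.42 to 7.79 CPM (median 4.06) and was not called, at 0.47 ± 0.26 (SE, adjusted p = 0.166). *Olig2*, of the ventral spinal cord, was low throughout, at 0.0946, 0, 0 and 0 CPM against 0.154 to 0.806 CPM (median 0.3899).

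Of 9 genes of neurogenesis and early neurons, 6 were higher and 0 lower, with a median of 0.71, beside 21.0% and 20.9% of all genes. The RNA-binding protein gene *Elavl4* was at 11.8, 11.96, 11.9 and 7.03 CPM against 3.08 to 5.54 CPM (median 4.93), with no overlap, and differed by 1.23 ± 0.083 (SE, adjusted p = 2.6e-06). *Neurod1*, a proneural factor, differed by 1.19 ± 0.15 (SE, adjusted p = 0.000125) and *Stmn2*, a gene of growing axons, by 0.71 ± 0.10 (SE, adjusted p = 0.000173). Of 11 genes of the forebrain, midbrain and hindbrain, 1 was higher and 4 were lower, and the forebrain and midbrain gene *Otx2* did not exceed 8 counts in any library. Among 8 neural crest and border genes 2 were higher and 3 lower, a mixed set in which *Msx1*, of the dorsal neural tube and border, rose by 1.04 ± 0.17 (SE, adjusted p = 0.000623), and *Ets1*, which crest shares with endothelium, fell, at −1.12 ± 0.13 (SE, adjusted p = 8.25e-05).

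Placode and early ectoderm genes were lower in 4 of 8 cases and higher in 1, beside 20.9% and 21.0% of all genes. *Eya1*, a transcriptional coactivator of placodes and also of somites, was at 8.96, 6.39, 6.18 and 9.46 CPM against 19.8 to 33.8 CPM (median 24.1), without overlap, and differed by −1.70 ± 0.11 (SE, adjusted p = 2.53e-06). *Six4*, a homeobox gene of the same tissues, was at 52.8, 48.1, 53.3 and 49.4 CPM against 65.8 to 78.5 CPM (median 72.2), again without overlap, and differed by −0.51 ± 0.052 (SE, adjusted p = 2.84e-05).

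Of 12 genes of definitive endoderm and epithelium, 6 were lower in passage 13 (*Cer1*, *Cldn6*, *Foxa1*, *Foxa2*, *Hhex* and *Sox17*) and 0 higher, with a median of −0.43. Of all genes, 20.9% were called lower and 21.0% higher. *Sox17*, the defining factor of definitive endoderm, was low in all libraries, at 0.505, 0.527, 0.406 and 0.4100 CPM against 1.47 to 4.204 CPM (median 2.51). All passage 13 libraries lay below the others, with a difference of −2.56 ± 0.32 (SE, adjusted p = 0.000105). *Foxa2*, of endoderm and axial mesoderm, was at 0.347, 0.351, 0.464 and 0.0879 CPM against 0.327 to 2.47 CPM (median 1.404) and differed by −2.24 ± 0.34 (SE, adjusted p = 0.000413). *Cer1*, a secreted Nodal and BMP antagonist of anterior endoderm that the newest presomitic segments express as well, gave the lowest log2 difference of the 386 listed genes tested, −4.69 ± 0.80 (SE, adjusted p = 0.000813). It was at 5.77, 0.614, 0.8699 and 5.92 CPM against 13.8 to 191 CPM (median 59.3), with no overlap. The passages other than 13 also differed in this list, where 9 of 12 genes were higher in passage 16 than in passage 15 and 1 lower, against 2.32% and 2.09% of all genes. *Sox17* was higher in passage 16 by 0.86 (adjusted p = 0.00905) and *Foxa2* by 0.94 (adjusted p = 0.00888). The call of *Hhex*, at −0.34 (adjusted p = 0.0228), was lost against passage 15 alone and without the 1×, 3× or 2-DG library of passage 13, and that of *Cldn6* without the 3× library. The epithelial genes *Cdh1*, *Epcam* and *Krt18* were not called between passage 13 and the others, with differences of 0.14 to 0.43. Against passage 15 alone all 3 passed, and *Epcam* also passed with DESeq2, with passage as 3 levels, without the 2-DG libraries and without the 2-DG library of passage 13 or the 3× or 2-DG library of passage 16.

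Blood vessel and ventral mesoderm genes followed the same direction. Of 11 endothelial and blood genes, 6 were lower and *Pecam1* was higher, with a median of −0.88, beside 20.9% and 21.0% of all genes. *Kdr*, the VEGF receptor of early endothelium, was at 1.29, 0.768, 0.754 and 0.351 CPM against 0.453 to 8.96 CPM (median 5.003). In 2-DG all 3 passages were low, so the groups overlapped, and the difference was −2.37 ± 0.30 (SE, adjusted p = 0.000128). *Fli1*, an endothelial and blood transcription factor, was at 0.252, 0.154, 0.232 and 0.205 CPM against 0.559 to 3.05 CPM (median 1.49) and differed by −2.90 ± 0.37 (SE, adjusted p = 0.000134). *Pecam1*, an adhesion molecule that ES cells also express, was called higher at 0.70 ± 0.23 (SE, adjusted p = 0.0326), and the call was lost with DESeq2, without the block, against passage 15 alone and without any 1 of 7 libraries (all 4 of passage 13, 3× of passage 15 and 0× and 1× of passage 16). The globin genes *Hbb-bh1* and *Hba-x* had 0 counts in all 12 libraries.

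Of 11 lateral plate, intermediate and cardiac mesoderm genes, 6 were lower and *Gata4* was higher, with a median of −0.42. The shares of all genes were 20.9% lower and 21.0% higher. *Osr1*, of intermediate and lateral mesoderm, was at 1.36, 0.856, 0.406 and 0.322 CPM against 0.899 to 7.24 CPM (median 4.17) and differed by −2.38 ± 0.24 (SE, adjusted p = 2.69e-05). *Foxf1*, of lateral plate mesoderm, differed by −1.31 ± 0.15 (SE, adjusted p = 6.52e-05) and *Isl1*, of the second heart field and of motor neurons, by −1.42 ± 0.14 (SE, adjusted p = 2.34e-05), both without overlap. *Gata4*, of cardiac mesoderm and endoderm, went the other way, at 0.54 ± 0.10 (SE, adjusted p = 0.000983). *Hand1*, of lateral and extraembryonic mesoderm, was at 0.442, 0.198, 0.348 and 0.234 CPM against 0.209 to 0.533 CPM (median 0.244) and was not called, at 0.055 ± 0.33 (SE, adjusted p = 0.914). The cardiac factor *Nkx2-5* did not pass the filter on low counts. Of 6 genes of the cadherin switch and the epithelial-to-mesenchymal transition, 5 were lower and 0 higher. *Snai1*, the repressor that starts this transition in the streak, was at 42.1, 33.2, 33.2 and 21.03 CPM against 41.9 to 75.4 CPM (median 58.7) and differed by −0.87 ± 0.09 (SE, adjusted p = 3.35e-05). Summed over each list, all members included, the 15 somite and paraxial genes summed to 345 to 575 CPM in passage 13 and 926 to 1605 CPM in the others, whereas the 13 endoderm genes summed to 92.9 to 147 CPM against 190.0 to 266 CPM and the 14 lateral plate genes to 15.3 to 19.7 CPM against 22.6 to 41.9 CPM. All 3 sums lay below the others in every passage 13 library, and the 17 neural progenitor genes, at 429.5 to 577 CPM against 261 to 397 CPM, lay above them. The endoderm sum holds *Cer1*, which presomitic segments express as well, at 0.614 to 5.92 CPM in passage 13 and 13.8 to 191 CPM in the others. In the 0× library of passage 15 *Cer1* alone was at 191 CPM, and no passage 15 sum exceeded 266 CPM. In passage 13 it was at most 5.92 CPM, of sums of at least 92.9 CPM. Without *Cer1*, the endoderm sums of passage 13 therefore do not lie below those of all other libraries. The sums of the neurogenesis list and of the glycolysis and hypoxia list also lay above all others in every passage 13 library. Those of the placode, primordial germ cell, Nodal pathway, imprinted and epithelial-to-mesenchymal transition lists lay below them. The endothelial, presomitic and tail bud sums overlapped with the others. The 15 endothelial and blood genes summed to 18.3 to 96.2 CPM against 22.5 to 88.5 CPM. The 10 presomitic genes summed to 1030.1 to 1657 CPM against 1554 to 2141 CPM, and the 12 tail bud genes to 994 to 1941 CPM against 893 to 1358 CPM.

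Of 12 naive pluripotency genes, 2 were higher and 2 lower, beside 21.0% and 20.9% of all genes. *Pou5f1*, the core pluripotency factor that lingers in early gastruloids, was at 30.1, 40.3, 37.6 and 53.2 CPM against 20.2 to 51.3 CPM (median 33.5) and was not called, at 0.27 ± 0.15 (SE, adjusted p = 0.175). It was higher in passage 16 than in passage 15 by 0.54 (adjusted p = 0.00491). *Nanog* was at 2.11, 3.34, 4.44 and 5.13 CPM against 1.02 to 4.66 CPM (median 2.67) and was called at 0.46 ± 0.15 (SE, adjusted p = 0.034), which was lost without any 1 of 6 libraries, 3 of them of passage 13 (0×, 1× and 3×) and 3 of passage 15 (0×, 1× and 2-DG), and against passage 16 alone. *Tfcp2l1*, of the naive network, was higher by 0.57 ± 0.094 (SE, adjusted p = 0.00066), and *Klf4* and *Tbx3*, which are not restricted to pluripotent cells, were lower, at −0.91 ± 0.11 (SE, adjusted p = 0.00012) and −1.56 ± 0.28 (SE, adjusted p = 0.001). Of 9 epiblast genes, 3 were higher and 0 lower, among them *Lin28a*, a regulator of let-7 microRNAs, at 0.39 ± 0.052 (SE, adjusted p = 0.000165). Of 7 genes of primordial germ cells, the receptor *Kit* was higher, at 0.78 ± 0.076 (SE, adjusted p = 2.24e-05), and *Ifitm1* lower, at −0.37 ± 0.037 (SE, adjusted p = 2.48e-05).

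The *Hox* genes were sorted by cluster as well as by axial level, beside 21.0% of all genes called higher and 20.9% called lower. In the groups 1 to 4, the anterior ones, 2 of 12 were higher and 5 lower, with a median of −0.01. In the groups 5 to 8, of the trunk, 8 of 11 were higher and 3 lower, with a median of 0.68. In the groups 9 to 13, 6 of the 16 listed genes passed the filter, and of these 3 were higher and 1 lower. All 5 tested genes of the *Hoxc* cluster were higher, with a median of 1.31, and 4 of the 6 of the *Hoxd* cluster were lower and 0 higher, with a median of −0.69. The *Hoxa* cluster had 3 of 9 genes higher and 4 lower, and the *Hoxb* cluster 5 of 9 higher and 1 lower.

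*Hoxc8* was at 207, 185, 188 and 32.4 CPM against 18.6 to 84.1 CPM (median 59.5) and differed by 1.45 ± 0.15 (SE, adjusted p = 3.86e-05). Its 3 glucose libraries in passage 13 stood far above all others, and its 2-DG library stood above the 2-DG libraries of both other passages, which were the low end of that range. *Hoxc6* was at 156, 152, 157 and 23.05 CPM against 14.8 to 76.9 CPM (median 50.1) and differed by 1.31 ± 0.17 (SE, adjusted p = 0.000123), and *Hoxc9* was at 26.6, 24.2, 26.7 and 2.64 CPM and differed by 1.5 ± 0.20 (SE, adjusted p = 0.000178). *Hoxb8* was at 205, 197, 197 and 136 CPM against 88.6 to 134 CPM (median 116) and differed by 0.68 ± 0.042 (SE, adjusted p = 1.98e-06), and here the 2-DG library too lay above all others. *Hoxb7* differed by 0.76 ± 0.049 (SE, adjusted p = 2.43e-06) and *Hoxb9* by 0.80 ± 0.055 (SE, adjusted p = 2.73e-06). *Hoxb5* went the other way, at −0.35 ± 0.051 (SE, adjusted p = 0.00029), as did *Hoxa5* at −0.48 ± 0.087 (SE, adjusted p = 0.00111), both without overlap. In the *Hoxd* cluster, *Hoxd1* was at 22.5, 21.00, 22.6 and 26.3 CPM against 33.3 to 67.9 CPM (median 47.4), with no overlap, and differed by −1.07 ± 0.19 (SE, adjusted p = 0.000911), while *Hoxd8*, at 16.1, 12.2, 11.2 and 2.87 CPM against 5.33 to 28.5 CPM (median 18.1), overlapped with the others. *Hoxd3* differed by −0.75 ± 0.05 (SE, adjusted p = 2.55e-06) and *Hoxd8* by −0.75 ± 0.15 (SE, adjusted p = 0.00235), and the *Hoxd8* call did not pass without the block. *Hoxa7* and *Hoxa9* were higher by 0.86 ± 0.14 (SE, adjusted p = 0.000599) and 1.08 ± 0.23 (SE, adjusted p = 0.00327), and neither passed without the block. The *Hoxa* cluster lies on chromosome 6, where the median difference of all genes of at least 5 CPM was −0.138.

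**Figure D3:**
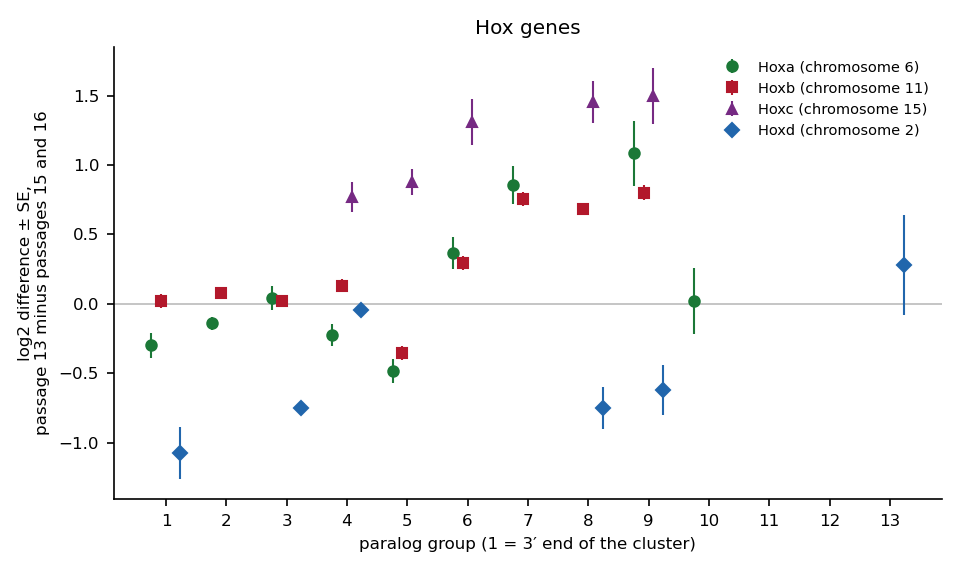
Log2 difference of passage 13 from passages 15 and 16 (vertical axis, ± SE) for the 29 *Hox* genes that passed the filter, by paralog group (horizontal axis) and cluster (colour and symbol). The *Hoxc* genes lay at 0.77 to 1.5, the *Hoxd* genes at −1.07 to 0.28, and the *Hoxa* and *Hoxb* genes lay at −0.48 to 0.13 in the groups 1 to 5 and at 0.68 to 1.08 in the groups 7 to 9. *Hoxa6* and *Hoxb6* lay between these, at 0.37 and 0.29, and *Hoxa10*, which was not called, lay at 0.022.

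The signalling lists had counts of called genes in each direction near those of all genes, at 14.3% to 30.0% higher and 22.2% to 30.0% lower, beside 21.0% and 20.9%. Of 9 feedback targets of Wnt, 2 were higher and 2 lower. *Notum*, a secreted enzyme that inactivates Wnt ligands, was at 75.4, 76.2, 70.1 and 42.03 CPM against 17.2 to 27.99 CPM (median 19.6) with no overlap and differed by 1.64 ± 0.16 (SE, adjusted p = 2.22e-05). *Lef1*, a transcription factor of the pathway that mesoderm expresses, went the other way, at 195, 147, 161 and 88.8 CPM against 194 to 327 CPM (median 271), a difference of −0.88 ± 0.10 (SE, adjusted p = 6.34e-05). Of 10 FGF feedback targets 2 were higher and 3 lower, and *Etv4* and *Il17rd* were the higher ones, at 0.42 (adjusted p = 0.00475) and 0.43 (adjusted p = 0.00612), both lost without the block. Of 10 BMP ligands and targets 2 were higher and 3 lower, with the target *Id2* at 1.09 (adjusted p = 5.11e-06) and *Id4* at −1.17 (adjusted p = 0.000189). Of 7 Nodal pathway genes 1 was higher and 2 lower, and the receptor *Acvr2b* was at 222, 203, 229 and 175 CPM against 237 to 299 CPM (median 275), with no overlap and a difference of −0.38 ± 0.034 (SE, adjusted p = 1.5e-05). In the retinoic acid list 3 of 10 genes were higher and 3 lower. The carrier *Crabp2* and the receptor *Rarg* were higher, at 0.68 (adjusted p = 2.79e-06) and 0.68 (adjusted p = 0.000104), and the receptor *Rarb*, itself a retinoic acid target, was lower, at −1.33 (adjusted p = 0.00714), beside the lower *Aldh1a2* given above.

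Most glycolysis and hypoxia genes were higher in passage 13. Glucose enters these cells through the transporters *Slc2a1* (Glut1) and *Slc2a3* (Glut3), is phosphorylated by hexokinase and is broken down to pyruvate, which *Ldha* turns into lactate and whose entry into the citric acid cycle *Pdk1* limits. Many of these genes are targets of hypoxia-inducible factor, which binds sites whose core is commonly ACGTG. Of the 16 listed genes 13 were higher and 0 lower in passage 13, with a median of 0.58, and for 11 the passage 13 libraries lay above all others. Of all genes, 21.0% were called higher and 6.35% lay above all others. The 3 not called were *Adm*, *Hk2* and *Vegfa*, of which *Hk2*, a hexokinase, stood at 0.042 ± 0.051 (SE, adjusted p = 0.545).

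Promoters of 3 members are shown because 13 of the 16 members moved one way and this core is known in the list. They are the 3 members with the smallest adjusted p among those whose promoter held ACGTG or its reverse complement CACGT, a choice made after their values were seen, and *Pgk1* and *Ldha* stand outside the naming rule. Each runs from 250 bases before to 50 bases after the first listed start of the gene in RefSeq on GRCm38.p6, 5′ to 3′ on the strand of the gene, and capitals mark both motifs, which overlap in CACGTG.
*Slc2a1*, chr4:119108495-119108794 (+ strand): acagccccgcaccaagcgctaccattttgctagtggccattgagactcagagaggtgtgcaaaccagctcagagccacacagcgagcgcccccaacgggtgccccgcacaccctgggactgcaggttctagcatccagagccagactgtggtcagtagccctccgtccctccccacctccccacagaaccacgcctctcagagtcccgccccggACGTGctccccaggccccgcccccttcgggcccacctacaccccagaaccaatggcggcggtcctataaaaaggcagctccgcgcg
*Pgk1*, chrX:106186850-106187149 (+ strand): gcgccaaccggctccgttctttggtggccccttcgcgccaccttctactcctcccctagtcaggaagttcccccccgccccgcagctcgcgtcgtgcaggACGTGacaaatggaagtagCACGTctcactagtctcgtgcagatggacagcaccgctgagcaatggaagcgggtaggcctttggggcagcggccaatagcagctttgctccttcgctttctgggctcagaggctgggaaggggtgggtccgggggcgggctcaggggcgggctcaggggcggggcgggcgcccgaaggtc
*Ldha*, chr7:46845554-46845853 (+ strand): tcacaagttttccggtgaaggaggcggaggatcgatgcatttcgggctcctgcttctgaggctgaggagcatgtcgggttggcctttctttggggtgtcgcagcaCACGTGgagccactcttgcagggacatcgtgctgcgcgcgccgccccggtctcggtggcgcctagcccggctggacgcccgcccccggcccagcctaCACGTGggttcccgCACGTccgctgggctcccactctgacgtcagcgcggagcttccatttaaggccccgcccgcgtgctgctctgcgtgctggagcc
*Pgk1*, which makes the first ATP of glycolysis, was at 918, 927, 881 and 834 CPM against 462 to 648 CPM (median 525) and differed by 0.71 ± 0.065 (SE, adjusted p = 1.49e-05), and *Ldha* differed by 0.47 ± 0.054 (SE, adjusted p = 6.85e-05). Of the 14 list members with a promoter in the table, 7 held the motif on either strand, beside 24.9% of the promoters of 12846 tested genes. *Pfkp*, with the smallest adjusted p of the list, did not hold it in this window, nor did *Aldoa*, *Eno1*, *Pdk1* and *Pkm*, which were called higher too. Of the genes not called, *Hk2* held 2 matches, and *Adm* and *Vegfa* held 0. Since many members are known targets of this factor, the share describes the list and not passage 13. A match of letters is a description and not a binding site.

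*Slc2a3* was at 940.0, 1068, 1141 and 1037 CPM against 335 to 607 CPM (median 496). No other library reached the lowest of passage 13, and the difference was 1.16 ± 0.082 (SE, adjusted p = 3.01e-06). *Slc2a1* was at 858, 909, 1017 and 1292 CPM against 482 to 727 CPM (median 539) and differed by 0.85 ± 0.034 (SE, adjusted p = 2.05e-07). In all 3 passages it was highest in 2-DG. *Pfkp*, the platelet form of phosphofructokinase, the committed step of glycolysis, was at 39.8, 43.3, 46.8 and 55.1 CPM against 15.9 to 21.2 CPM (median 16.98) and differed by 1.37 ± 0.041 (SE, adjusted p = 2.63e-08). Its most abundant transcript alone gave a difference of 1.40 that was not called. The median matched difference of the list was 0.52 in 0×, 0.43 in 1× and 0.62 in 3× glucose and 0.74 in 2-DG, so that it was present under each treatment. Between passages 16 and 15, 1 gene of the list was higher in passage 16 and 6 were lower, with a median of −0.12.

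**Figure D4:**
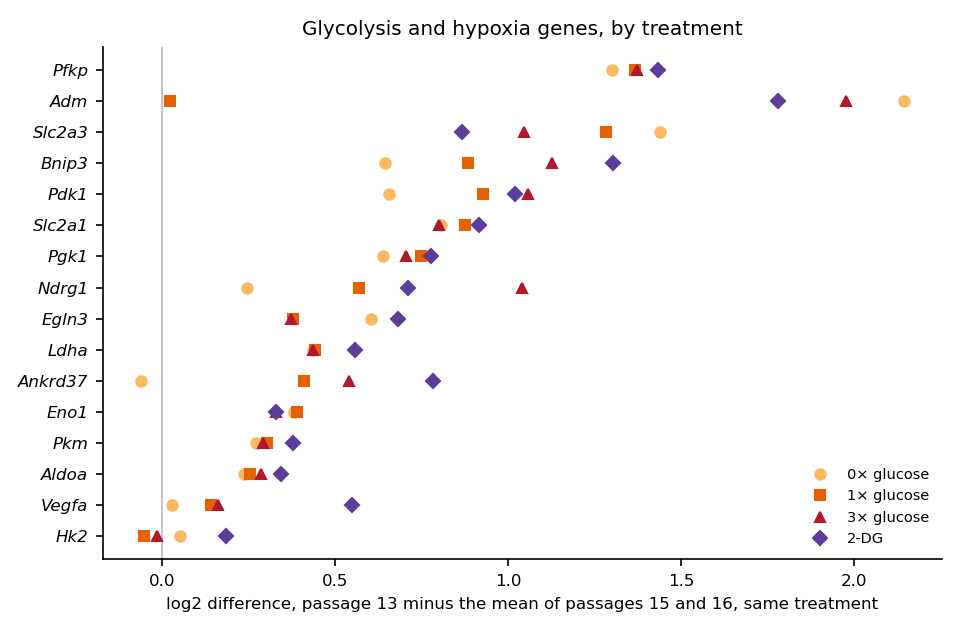
Log2 difference of passage 13 from the mean of passages 15 and 16 in the same treatment (horizontal axis) for the 16 genes of the glycolysis and hypoxia list (rows), with 1 point for each treatment. *Pfkp*, *Slc2a3*, *Slc2a1* and most other genes lay to the right of 0 under all 4 treatments, and *Hk2* lay near 0.

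Imprinted genes, which are expressed from 1 parental allele and can lose that control in cultured ES cells, were lower in 9 of 20 cases and higher in 1, with a median of −0.25. Of all genes, 20.9% were lower and 21.0% higher. The passages other than 13 differed in this list too, with 5 of the 20 genes higher in passage 16 than in passage 15 and 2 lower. Over all genes these shares were 2.32% and 2.09%. *Peg3*, a paternally expressed zinc finger gene, was at 415, 357, 379.6 and 369 CPM against 478 to 795 CPM (median 665) with no overlap and differed by −0.79 ± 0.079 (SE, adjusted p = 2.76e-05). *Nnat*, also paternally expressed, differed by −0.67 ± 0.065 (SE, adjusted p = 2.34e-05). The maternally expressed RNA *H19* was at 23.3, 26.2, 20.8 and 13.5 CPM against 23.4 to 52.02 CPM (median 44.98), and differed by −0.98 ± 0.10 (SE, adjusted p = 3.04e-05). *Cdkn1c*, a maternally expressed inhibitor of the cell cycle, was the higher gene, at 0.64 ± 0.10 (SE, adjusted p = 0.000541). Allele-specific expression was not measured.

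The following counts stand beside 21.0% of all genes called higher and 20.9% called lower. Of 10 mitosis genes 0 were higher and 3 lower, and of 11 DNA replication genes 4 were higher and 3 lower, with all 21 differences between −0.23 and 0.18. Of 13 ATF4 targets, at −0.18 to 1.17, 3 were higher and 0 lower, and of 12 p53 targets, at −0.30 to 0.16, 1 was higher and 3 lower. Sterol synthesis genes, at −0.37 to 0.078, were lower in 4 of 13 cases and higher in 0. Immediate early genes, at −1.06 to 1.44, were higher in 4 of 9 cases and lower in 1, and cytosolic heat shock genes, at −0.13 to 0.55, were higher in 2 of 7 and lower in 2. Node and notochord genes were higher in 1 of 6 cases and lower in 1. Of 5 extraembryonic endoderm genes 0 were higher and 1 lower, and *Afp* and *Ttr* had 0 counts in all libraries. The trophoblast list had 1 gene above the filter, *Ascl2*, which was higher, and of 3 germline genes silenced by methylation 1 was higher.

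Over all genes, the 10 lowest and 10 highest differences were taken among called genes of at least 5 CPM that lay on the same side of both other passages under all 4 treatments. The lowest were *Cer1*, *Tbx18*, *Pcdh8*, *Stum*, *Foxd1*, *Ebf1*, *Cldn11*, *Nr2f2*, *Fgf18* and *Mesp2*, at −4.69 to −2.14. *Pcdh8*, the protocadherin of the segmental plate, was at 26.2, 8.93, 11.6 and 57.7 CPM against 82.8 to 235 CPM (median 146) and differed by −2.76 ± 0.48 (SE, adjusted p = 0.000867). *Nr2f2*, an orphan nuclear receptor of mesenchyme, was at 8.74, 5.07, 4.64 and 6.27 CPM against 14.5 to 46.4 CPM (median 29.1) and differed by −2.19 ± 0.21 (SE, adjusted p = 2.21e-05). *Ebf1*, a transcription factor of blood and mesenchyme, differed by −2.51 ± 0.30 (SE, adjusted p = 7.36e-05). The highest were *Hap1*, *Kcnj12*, *Fgfbp3*, *Igfbp5*, *Sox3*, *Notum*, *Sost*, *Plekha2*, *D030055H07Rik* and *Cystm1*, at 1.51 to 1.76. *Plekha2*, of a phosphoinositide-binding adaptor, was at 80.4, 81.8, 83.97 and 68.3 CPM against 21.3 to 31.2 CPM (median 27.04) with a wide gap, and differed by 1.57 ± 0.081 (SE, adjusted p = 6.39e-07). *Fgfbp3*, which carries FGF ligands out of the matrix, was at 54.7, 61.2, 65.3 and 183 CPM against 14.5 to 72.6 CPM (median 17.4), and all 3 passages were highest in 2-DG. *Igfbp5*, a carrier of insulin-like growth factors, differed by 1.71 ± 0.22 (SE, adjusted p = 0.000152). The 4 values of *Kcnj12* in passage 13 were 7.003, 9.81, 10.5 and 42.5 CPM against 1.76 to 18.3 CPM (median 2.78).

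Calls of further genes named here ended under an alternative. Without the treatment block, those of *Cyp26a1*, *Fgf17*, *Hes3*, *Irx3*, *Kcnj12*, *Nanog*, *Nodal*, *Nrarp*, *Rarb* and *Tfcp2l1* did not pass. With the most abundant transcript alone, 45 did not pass, among them *Acvr2b*, *Cdkn1c*, *Ebf1*, *Elavl4*, *Eya1*, *Foxa1*, *Foxa2*, *Gata4*, *Hoxb8*, *Hoxc4*, *Ifitm1*, *Kit*, *Msi1*, *Notum*, *Peg3*, *Pfkp*, *Ripply1*, *Ripply2*, *Sox17*, *Stum*, *Tbx3*, *Tcf15*, *Uncx* and *Wnt5a*. *Ripply2*, *Etv4* and *Il17rd* were not called against passage 16 alone. Of the 123 called genes named here, 71 kept their direction and call in all 22 alternatives. Of the genes not called, with passage as 3 levels *Adm*, *Epcam*, *Krt18*, *Pax6*, *Pou5f1* and *Vegfa* passed, as did *Pou5f1* against passage 15 alone, and *Pax6* and *Vegfa* against passage 16 alone. *Vegfa* also passed without the 0× library of passage 15, and *Invs* with DESeq2, without the 2-DG libraries and without the 3× or the 2-DG library of passage 13.

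Whether the passage 13 difference was another in 2-DG was tested with an interaction term. It was called for 59 genes (0.353%), with 22 more positive and 37 more negative in 2-DG, and 1700 genes had an unadjusted p under 0.05. Only 1 passage 13 library carries this contrast, and the count ran from 12 to 92 when single libraries were left out. The receptor *Rarb* was at 5.300, 3.599, 3.94 and 18.6 CPM against 12.8 to 21.6 CPM (median 16.6), far below the others in the 3 glucose libraries of passage 13 and inside their range in 2-DG, and the interaction was 2.18 ± 0.16 (SE, adjusted p = 0.00031). *Meis2*, a Hox cofactor that retinoic acid raises, was at 123, 104, 101 and 179 CPM against 197 to 255 CPM (median 218), below them in all 4 libraries but least in 2-DG, and its interaction was 0.79 (adjusted p = 0.00155). *Invs*, of the ciliary inversin compartment, was at 39.6, 39.6, 38.8 and 18.98 CPM against 37.1 to 45.05 CPM (median 41.5), below the whole range of the others in the 2-DG library alone, with an interaction of −0.87 (adjusted p = 0.00155). The other 2 of the 5 smallest adjusted p were predicted genes. *Gm14434* was listed at 0 in the 2-DG libraries of passages 15 and 16 and at 19.7 to 24.3 CPM in the other 10, and *Gm3417* was listed at 0 in the 2-DG library of passage 13 and at 1.58 to 2.26 CPM in the other 11. Predicted genes often have near-identical copies between which estimated counts can be split, so these values are uncertain.

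Of the 386 listed genes tested, 8 were called in the interaction, *Rarb* among them and 3 more given here, of which *Greb1* was chosen after its values were seen. *Fgf17* was at 46.3, 48.3, 47.3 and 3.98 CPM against 4.003 to 22.6 CPM (median 18.9), with an interaction of −1.42 (adjusted p = 0.0361). *Greb1*, of the tail bud, was at 327, 307, 324 and 126 CPM against 127 to 206 CPM (median 184), with an interaction of −0.79 (adjusted p = 0.00184), and *Hoxc4* was at 99.3, 101, 104 and 34.3 CPM against 28.3 to 61.2 CPM (median 50.3), with −0.79 (adjusted p = 0.0361). The calls of *Fgf17* and *Hoxc4* were lost without any 1 of 6 libraries (0× or 1× of passage 13, 1× of passage 15 and 1×, 3× or 2-DG of passage 16). Among the 2-DG libraries alone, *Hoxc4* was highest in passage 13, at 34.3 CPM against 28.3 CPM in passage 15 and 33.3 CPM in passage 16. *Fgf17*, at 3.98 CPM against 4.003 and 4.90 CPM, and *Greb1*, at 126 CPM against 127 and 130 CPM, were slightly lower in passage 13. In all 3 genes the glucose libraries of passage 13 stood above all libraries of the other passages and its 2-DG library did not. *T* showed the same order of values, but its interaction of −1.21 was not called (adjusted p = 0.0517). *Foxc2* and *Sox2*, at 1.10 (adjusted p = 0.21) and −0.21 (adjusted p = 0.75), were not called either.

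Expression was also shifted by chromosome. Among the 10976 genes of at least 5 CPM, the median difference of the 507 genes on chromosome 6 was −0.138, with 75.9% of them negative, 52.1% called lower and 11.4% called higher. For all genes the median was −0.0066, with 26.8% called lower and 22.0% higher. The medians of the 18 chromosomes other than 6 and 8 lay between −0.020 and 0.023. Split in gene order into 4 equal stretches, chromosome 6 was shifted in each, by −0.10 to −0.16. By library, the median deviation of chromosome 6 genes from the treatment mean was −0.094 to −0.078 in passage 13, −0.0048 to 0.012 in passage 15 and 0.074 to 0.087 in passage 16, with no overlap between passages. The 600 genes of chromosome 8 had a median of −0.056 and deviations of −0.039 to −0.0054 in passage 13, −0.028 to −0.0050 in passage 15 and 0.040 to 0.051 in passage 16, where passages 13 and 15 overlapped and passage 16 stood above both. DNA copy number was not measured, and the part of these shifts in the results above was not tested. Among the genes above, *Slc2a3*, *Hk2*, *Nanog* and the *Hoxa* cluster lie on chromosome 6 and *Foxc2*, *Foxf1*, *Cdh1*, *Sox1*, *Irx3* and *Plekha2* on chromosome 8.

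**Figure D5:**
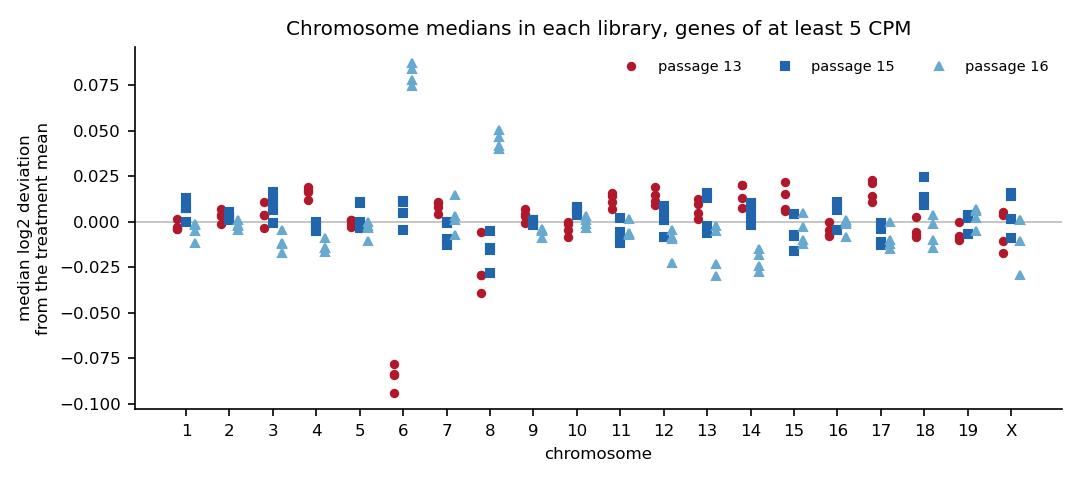
Median log2 deviation from the mean of the 3 libraries of the same treatment (vertical axis) of the genes of at least 5 CPM on each chromosome (horizontal axis), with 1 point for each library. On chromosome 6 the 4 passage 13 libraries lay at −0.094 to −0.078 and the 4 passage 16 libraries at 0.074 to 0.087, on chromosome 8 passage 16 lay at 0.040 to 0.051, and on the other chromosomes no library deviated by more than 0.030.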

How the data were processed

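Whole day 4 gastruloids were profiled by strand-marked polyA RNA-seq in 12 libraries. The authors trimmed reads with Trim Galore, aligned them to mm10 with HISAT2, removed duplicates with Picard and deposited estimated counts per RefSeq transcript from StringTie, written as whole numbers. Versions and the strand setting are not given in the sources used here. Duplicate removal caps the counts of highly expressed transcripts, and reads shared by transcripts or near-identical genes are split by estimate. The authors' tables of comparisons between treatments hold their own fold changes and p-values and were not used.

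Groups followed the passage number in the titles. The 120312 transcripts were summed to 38911 gene symbols through RefSeq (R 4.3.3, edgeR 4.0.16). edgeR's filter on low counts left 16693 of the 26382 genes with a count. TMM factors and the quasi-likelihood test were used with treatment as block and passage 13 against the others, two-sided, with Benjamini-Hochberg adjustment over all genes tested. The block pairs libraries of 1 treatment, which the titles give for every passage. Pairs of passages and the interaction with 2-DG were fitted likewise, the latter in the same 12 libraries. CPM was computed on TMM-scaled totals. Library totals of 31902471 to 45956080 set the counting precision, and no 2 libraries shared more than 9.67% of their values. The test was checked on simulated counts.

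The members and the 40 gene lists were chosen with earlier results of these data known. Named genes were the 10 highest and 10 lowest consistent differences at a mean of 5 CPM or more, up to 3 called genes in each direction per list by adjusted p, fixed lineage genes, the *Hox* genes and the 5 smallest interaction p. Complete sets of called members, and the genes said to be chosen after their values were seen, stand outside this rule, and some genes that it covers are not reported here. Alternatives were DESeq2 1.42.0, its size factors, other filters, no block, 3 passage levels, the most abundant transcript and left-out libraries.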

Additional observations from a re-analysis of the deposited data

Results flagged for a closer look

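In 14 of the 135 genes named in the text, 1 of the 4 treatment-matched differences of passage 13 from the mean of passages 15 and 16 stood apart from the other 3 by Dixon's criterion for 4 values at the 95% level. Chance alone marks about 1 in 20 independent groups. These genes share the same libraries, and many were named by their values, *Gm14434*, *Gm3417*, *Invs* and *Meis2* by their interaction with 2-DG. The count of 14 can therefore not be weighed against that rate. The value apart came from 2-DG in 12 genes and from 0× glucose in 2.

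In 2-DG the log2 difference apart was −0.325 for *Cyp26a1*, −0.843 for *Dll3*, −0.706 for *Foxd1*, −0.977 for *Invs*, −0.59 for *Kdr*, 0.559 for *Ldha*, −0.245 for *Meis2*, 0.65 for *Nodal*, 0.101 for *Ripply1* and −0.846 for *Twist1*. It was 8.75 for *Gm14434* and −5.03 for *Gm3417*. Both values for these predicted genes set a library listed at 0 against a positive one, so that they depend on the prior count and bound nothing. In 0× glucose it was −0.428 for *Foxa1* and −0.152 for *Msi1*.

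In 9 genes the passage 13 difference was another in 2-DG by the interaction term of edgeR's quasi-likelihood test at an adjusted p under 0.05. The interaction was −1.42 for *Fgf17*, −0.541 for *Fgfbp3*, −0.786 for *Greb1*, −0.788 for *Hoxc4*, −0.866 for *Invs*, 0.788 for *Meis2* and 2.18 for *Rarb*. For *Gm14434* it was 12.7 and for *Gm3417* −9.16, which again depend on the prior count. The call of *Fgfbp3* was lost when any 1 of 9 libraries was left out (0× or 1× of passage 13, any of passage 15, and 0×, 1× or 2-DG of passage 16).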

How the results depend on the processing

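The number of genes called between passage 13 and the others, 6988, moved by over 1.5 times under 2 alternatives. With no replicate block, which leaves the treatment pairing out of the model, it was 4180 (1965 higher, 2215 lower). With the most abundant transcript alone it was 2330 (1202 higher, 1128 lower), and the cause was not tested. DESeq2 gave 6596, and leaving out single libraries gave 4990 (without the 1× library of passage 13) to 6954, with 2464 to 3467 higher and 2526 to 3487 lower. For passages 16 and 15, the count of 736 was 326 with no filter and 83 to 1426 with single libraries left out. It fell most without the 0× library of passage 15 or the 3× library of passage 16 (both 83) and rose most without the 2-DG library of passage 13. The interaction count of 59 was 248 with DESeq2 and ran from 12 (without the 2-DG library of passage 16) to 92 (without that of passage 15), and it could not be fitted without the 2-DG library of passage 13. Of 879 alternative medians of gene lists, 826 moved by less than 1 SD over the treatments.

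Signs changed for few genes named. The most abundant transcript gave −0.042 for *Fgf8* and −1.13 for *Hes3*. Without the 2-DG libraries *Gm3417* was at 0.18 and *Hk2* at −0.0018, and with single libraries left out they ran from −0.69 to 0.18 and from −0.0065 to 0.073, both reversed without the 2-DG library of passage 13. Against passage 16 alone *Cdh1* was at −0.13 and *Hand1* at −0.20, and with single libraries left out *Hand1* ran from −0.10 to 0.31 and was negative without the 0× or 3× library of passage 13 or the 0× or 2-DG library of passage 15. Of these, *Fgf8* and *Hes3* were called and *Gm3417*, *Hk2*, *Cdh1* and *Hand1* were not. Depth limits genes under about 1 CPM in all libraries, such as *Olig2* and *Hand1*, and 1 batch per passage limits all comparisons.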
